A study of Homo sapiens with 3 samples.

Results

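HCC827-BR2 was set against HCC827-BR1, 2 sublines of the HCC827 line that had been selected for resistance to the same drug. HCC827 comes from a human adenocarcinoma of the lung and carries a mutant, activated form of EGFR, the epidermal growth factor receptor, on which its growth depends. The drug, BIBW2992, is afatinib, an irreversible inhibitor of the kinases of the EGFR family. HCC827-BR2, here clone 2, and HCC827-BR1, here clone 1, grew out of HCC827 cells while the drug was raised stepwise to 2 µM over 3 to 4 months, and each is 1 line set up from a single clone. HCC827 itself is labelled as sensitive to the drug. There was 1 array of each line, so that the comparison uses 2 of the 3 arrays and the third, HCC827, shows which clone stayed near its parent. The members are all 11681 named genes with a signal above background on at least 1 array, of 18852 genes named on the array. Nothing in the labels tells whether the cells were still in drug at RNA extraction, or whether the clones descend from separate cells, and no unselected clone was analysed here.

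Cells that grow on while EGFR is blocked are known to do so by several routes, among them altered EGFR family receptors or ligands, other receptor kinases, and a shift of the epithelial state towards a mesenchymal one. A clone also fixes whatever its founder cell carried, including gains and losses of chromosome segments, which are common in lung cancer lines and alter the RNA of many neighbouring genes at the same time. A pair of clones from one parent can therefore differ both in single genes and in blocks of neighbours.

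Each value below is a background-corrected, quantile-normalized log2 signal from 1 array, and a difference is clone 2 minus clone 1, so that 1 on the log2 scale is 2-fold. With 1 array a side there is no replicate, no error and no test for any value. The number of arrays limits the precision, and "apart" means only that a difference reached 2-fold. The median signals before normalization were 61.2 in clone 2, 57.3 in clone 1 and 60.4 in HCC827, and 33% of probes in clone 2, 33.6% in clone 1 and 34.1% in HCC827 were above background. Of 10 markers of lung adenocarcinoma epithelium, 7 were above background in clone 2 and 7 in clone 1, against 8 in HCC827; the lung lineage factor NKX2-1 was above background in HCC827 alone. The signals of these 10 genes summed to 8031 in clone 2, 11053 in clone 1 and 57063 in HCC827. Among 19 leukocyte markers 4 were above background in clone 2, 4 in clone 1 and 6 in HCC827. The signals of the 19 summed to 5268 in clone 2, 8106 in clone 1 and 6747 in HCC827. CD14 and CD68 passed on all 3 arrays, FCGR3A and LYZ in clone 2, and CD79A and MS4A1 in clone 1. AIF1, CD79A, CSF1R and LYZ passed in HCC827. PTPRC and the CD3 chains, which define leukocytes and T cells, were below background on all 3 arrays. Of 14 endothelial markers 3 passed in clone 2, 4 in clone 1 and 3 in HCC827, with sums of 852 in clone 2, 858 in clone 1 and 942 in HCC827. Of 14 fibroblast markers 3 passed in clone 2, 3 in clone 1 and 2 in HCC827, with sums of 1591 in clone 2, 1600 in clone 1 and 1186 in HCC827. ACTA2 and PDGFRA passed on all 3 arrays and FBLN1 in both clones, while COL1A1, the main collagen of fibroblasts, was below background throughout. In bulk RNA, fewer cells of a kind and less RNA per cell cannot be told apart.

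The clones differed by at least 2-fold in 449 of the 11681 genes, which is 3.84% of them. In clone 2, 216 genes were higher (1.85%) and 233 were lower (1.99%), and the median difference over all genes was -0.002 with an SD across genes of 0.475. A total of 109 genes (0.933%) were at least 3-fold apart. A total of 53 genes (0.454%) were at least 4-fold apart, 28 of them higher and 25 lower in clone 2, and 17 genes were at least 8-fold apart, 10 higher and 7 lower. Clone 1 lay below background for 47 of the 216 higher genes and clone 2 for 39 of the 233 lower ones, and 1 lower gene passed background in HCC827 alone, so that folds of genes dim in 1 clone are given as lower bounds against the dimmest signal that passed background on that array. A bound or measured fold of at least 2 remained for 194 of the higher and 209 of the lower genes. Second probes that also passed background existed for 136 of the apart genes. On 127 of these the second probe differed in the same direction, on 64 by at least 2-fold and on 0 by 2-fold the other way, while over all 3047 genes with a second probe 72.8% had the same direction on both.

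Against HCC827, 15.2% of the genes were at least 2-fold off in clone 2 (6.9% higher and 8.32% lower) and 14.5% in clone 1 (7.09% higher and 7.45% lower). Nearness to HCC827 split the 449 apart genes almost evenly between the clones. A total of 135 genes (30.1%) were within 2-fold of HCC827 in clone 1 only, 58 of them higher and 77 lower in clone 2. Another 117 (26.1%) were within 2-fold of HCC827 in clone 2 only, 63 higher and 54 lower in clone 2. In 92 genes (20.5%) both clones lay at least 2-fold from HCC827 on the same side, at unequal distances. In 102 (22.7%) both were within 2-fold of it, on opposite sides. The remaining 3, LOX, CNTNAP2 and PNCK, had signals at least 2-fold above HCC827 in one clone and at least 2-fold below it in the other. LOX was below background in clone 1, and with such signals set to the floor 2 of the 3 genes were left in this class. By plain distance, 206 of the 449 genes were nearer to HCC827 in clone 2 and 243 in clone 1. Both distances use the same HCC827 array, so an error on that array enters both.

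**Figure D1:**
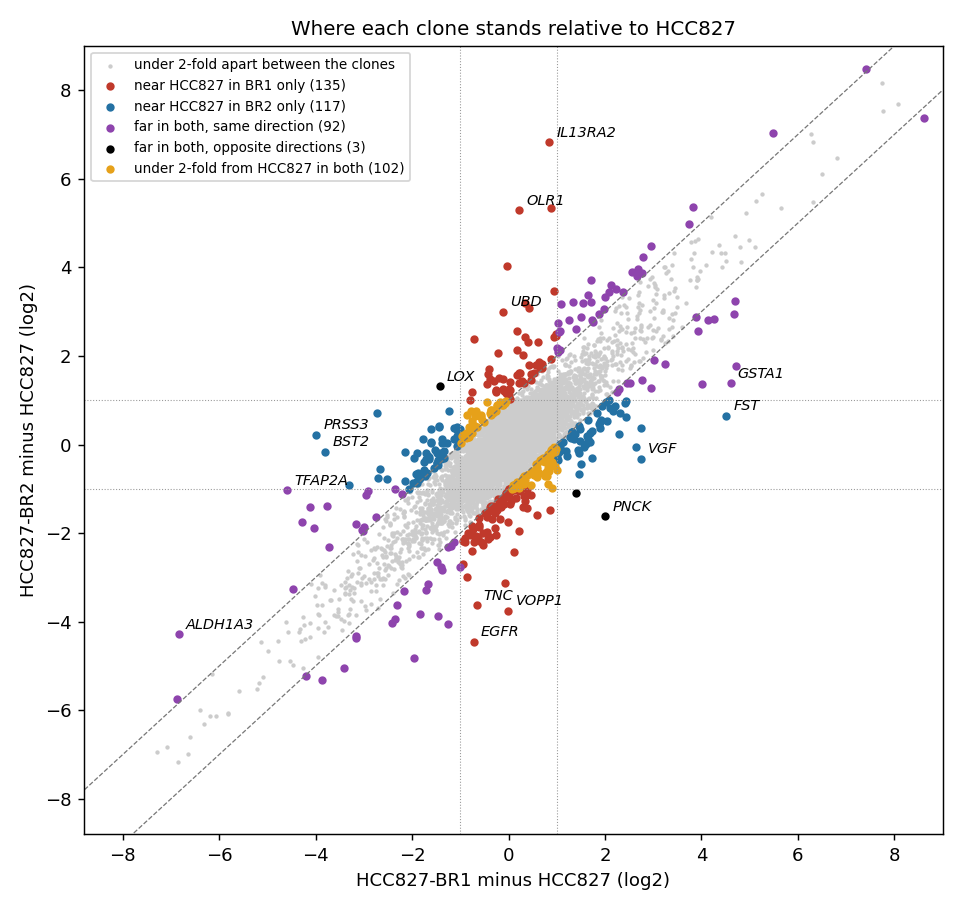
Each point is a gene, placed by its log2 difference from HCC827 in clone 1 and in clone 2, with the 449 genes at least 2-fold apart coloured by the clone that was within 2-fold of HCC827. Genes on the horizontal band around 0 stayed near HCC827 in clone 2, those on the vertical band in clone 1, and IL13RA2, OLR1 and TMEM52B stand high on the vertical band while EGFR, VOPP1 and LANCL2 stand low on it. Both axes share the HCC827 array.

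The 3 genes farthest above clone 1 in clone 2 were below background in HCC827, as were 6 of the 20 highest. IL13RA2, a cell-surface receptor that binds interleukin-13 with high affinity, had a log2 signal of 11.56 in clone 2, against 5.58 in clone 1 and 4.74, below background, in HCC827. This was a 62.9-fold difference between the clones, with clone 1 near the parent. OLR1, a scavenger receptor for oxidized low-density lipoprotein, had 10.16 in clone 2 and was below background in clone 1 and in HCC827, at 5.09 and 4.87, so that clone 2 was at least 26.2-fold higher. TMEM52B, a transmembrane protein encoded next to OLR1 on chromosome 12, had 9.87 in clone 2 and was likewise below background in clone 1 and HCC827, at 5.41 and 4.53, which gave at least 21.6-fold. The same pattern, present in clone 2 and below background in the other lines, held for TMEM98, a membrane protein that was at least 9.62-fold higher, and for GHR, the growth hormone receptor, at least 5.03-fold. EDN2, the vasoactive peptide endothelin-2, was at least 5.29-fold higher in clone 2, with 7.85 there, against 4.75, below background, in clone 1 and 5.46 in HCC827. UBD, a ubiquitin-like modifier, had 10.07 in clone 2, against 6.95 in clone 1 and 7.06 in HCC827, an 8.69-fold difference. SELENOM, a selenoprotein of the endoplasmic reticulum, was 5.74-fold higher in clone 2, with clone 1 near HCC827.

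Other genes were higher in clone 2 with clone 2 near the parental level and clone 1 below it. PRSS3, a trypsin-like protease, had 9.0 in clone 2, was below background in clone 1 at 4.80 and had 8.78 in HCC827, so that clone 2 was at least 11.8-fold higher. FAR2, which reduces fatty acyl-CoA to fatty alcohol, had 7.89 in clone 2 and 4.44, below background, in clone 1, against 7.17 in HCC827, so that clone 2 was at least 5.45-fold higher, and its second probe too was below background in clone 1 alone. TNFSF10, the death ligand TRAIL, had 6.82 in clone 2, was below background in clone 1 at 4.42 and had 7.73 in HCC827, at least 2.59-fold apart. For these 3 genes clone 2 resembled HCC827 and clone 1 did not. CYP2J2, an epoxygenase, followed them at a smaller size, with 8.66 in clone 2, 6.70 in clone 1 and 9.40 in HCC827.

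For a further group both clones lay below HCC827, clone 2 less far. TFAP2A, the transcription factor AP-2 alpha, had 10.73 in clone 2, 7.16 in clone 1 and 11.76 in HCC827, an 11.8-fold difference between the clones. A second probe of it differed by 2.51 and another, dim one by -0.23. ALDH1A3, a retinaldehyde dehydrogenase, had 8.02 in clone 2, 5.47 in clone 1 and 12.31 in HCC827, so that clone 2 was 5.84-fold above clone 1 while both were far below the parent. PCDH7, a protocadherin, was 6.49-fold higher in clone 2 in the same arrangement, with 8.39 in clone 2, 5.69 in clone 1 and 9.80 in HCC827.

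Among the genes lower in clone 2, one set was near the parental level in clone 1. VOPP1, a protein of the endosomal system whose gene neighbours EGFR, had 7.5 in clone 2, 11.25 in clone 1 and 11.26 in HCC827, a 13.4-fold difference. LANCL2, encoded beside it, had 7.99 in clone 2, 11.03 in clone 1 and 11.11 in HCC827, an 8.27-fold difference. TNC, the matrix glycoprotein tenascin-C, had 6.71 in clone 2, against 9.68 in clone 1 and 10.34 in HCC827. Each of these genes was thus lower in clone 2 alone. SERPINA1, the protease inhibitor alpha-1-antitrypsin, was 5.81-fold lower in clone 2 with 7.02 there, 9.56 in clone 1 and 9.44 in HCC827, and its second probe differed by -2.55. Retinoic acid-binding protein CRABP2 was 4.4-fold lower, ACMSD, an enzyme of tryptophan breakdown, 4.53-fold lower, and the prostaglandin E2 receptor PTGER2 at least 2.77-fold lower, all with clone 1 near HCC827.

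A second set was lower in clone 2 with clone 2 near HCC827 and clone 1 above it. FST encodes follistatin, a secreted binder of activins, and had 7.88 in clone 2, 11.75 in clone 1 and 7.23 in HCC827. That 14.6-fold difference was the lowest value in clone 2 relative to clone 1 among all 11681 genes, and the second probe was above background in clone 1 alone. VGF, a precursor of secreted neuropeptides, had 7.48 in clone 2, 10.55 in clone 1 and 7.80 in HCC827. IL1RAPL1, a synaptic adhesion protein of the interleukin-1 receptor family, had 7.87 in clone 2, 10.26 in clone 1 and 7.5 in HCC827. In all 3 clone 2 was near HCC827 and clone 1 was not. XK, a membrane protein tied to the Kell blood group, was below background in clone 2 and HCC827, and clone 2 was at least 3.69-fold below clone 1.

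For a further set both clones lay away from HCC827, on the same side. ZNF775, a zinc-finger protein, had 7.69 in clone 2, 10.65 in clone 1 and 5.93 in HCC827, so that clone 1 lay farther above it. EGR1, an immediate-early transcription factor induced by ERK signalling, had 5.57 in clone 2, 8.45 in clone 1 and 10.40 in HCC827, so that clone 2 lay farther below it. BCL11A, a zinc-finger repressor, was below background in clone 2 at 5.11, against 7.89 in clone 1 and 9.16 in HCC827. KRT19, a keratin of simple epithelia, had 9.74 in clone 2, 12.15 in clone 1 and 13.61 in HCC827, a 5.34-fold difference between the clones. AFP, the fetal liver protein alpha-fetoprotein, had 7.95 in clone 2 and 9.66 in clone 1 and was below background in HCC827 at 4.99.

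**Figure D2:**
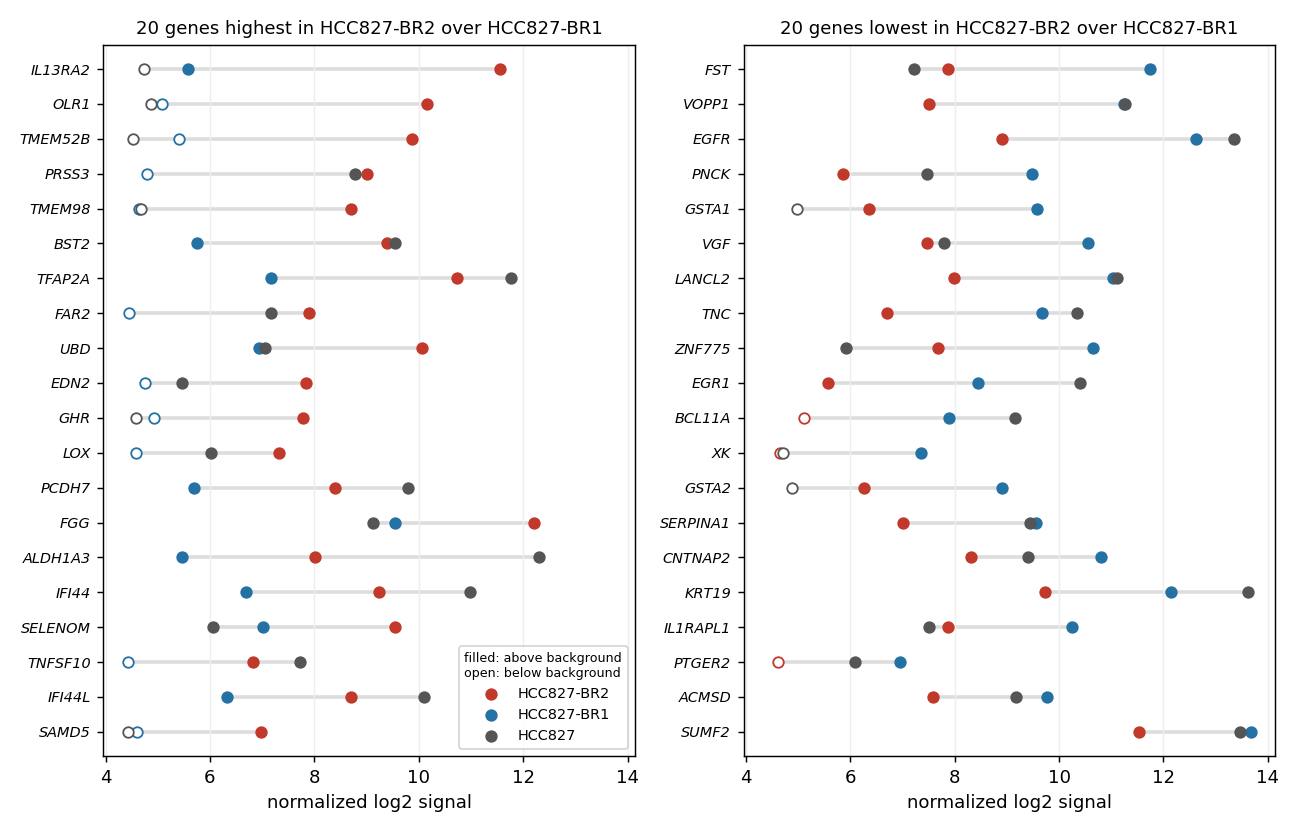
The normalized log2 signal of the 20 genes highest and the 20 lowest in clone 2 relative to clone 1 is drawn for each of the 3 arrays, with open symbols for signals below background. IL13RA2, OLR1 and TMEM52B are high in clone 2 alone, FST and VGF are high in clone 1 alone, and VOPP1, EGFR and LANCL2 are low in clone 2 alone.

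The group with the largest share of apart genes among lists of more than 20 detected members was the interferon response. These are genes switched on when interferon binds its receptor, many of them through a promoter element called the interferon-stimulated response element. Of 41 detected members, 16 were at least 2-fold higher in clone 2 and 1, SAMD9L, was lower, together 41.5% against 3.84% of all genes. For OAS2 and IFI27, counted among the 16, clone 1 was below background and the lower bound was under 2-fold. The median difference of the list was 0.91, against -0.002 over all genes, and 36 of the 41 differences were above 0, against 49.6% of all genes. Both clones were below HCC827, clone 1 more so, with a list median of -0.45 in clone 2 and -1.30 in clone 1, and 34 of the 41 genes were nearer to HCC827 in clone 2, against 47.6% of all genes. Of the 17 apart members, 9 were near HCC827 in clone 2 only, 1 in clone 1 only, 1 in both and 6 in neither. A total of 6 members lay in the stretches of neighbouring genes counted further on, IRF9 on chromosome 14, OAS1, OAS2 and OAS3 on chromosome 12, and SAMD9 and SAMD9L on chromosome 7. The chromosome 12 stretch, from IFT81 to RASAL1, was lower in clone 2 with a median of -0.43 on the brightest probes, and the OAS genes ran against that median. Of its 25 genes 3 were at least 2-fold lower and 2 higher, and its 9 second probes had a median of 0.20, the other way. IRF9, SAMD9 and SAMD9L ran the same way as their stretches. The 35 members outside all stretches had 13 higher genes and the same median of 0.91.

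The element can be read in the promoters of these genes. It was searched as GAAANNGAAA on either strand in the 250 bases before each gene's start, in RefSeq promoter sequences of GRCh38.p14. The sequences below are those of 6 of the higher members, chosen to show the motif single, repeated and overlapping, and are read along the strand of the gene, with the matches in capitals (TTTCNNTTTC is the same motif on the other strand) and overlapping matches run together. Coordinates are of the printed stretch. IFI27 counts as higher by its normalized difference, while its lower bound was 1.81-fold.
BST2, chr19:17405720-17405785, minus strand: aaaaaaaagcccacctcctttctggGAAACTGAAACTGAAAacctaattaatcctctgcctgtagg
IFI44, chr1:78649746-78649788, plus strand: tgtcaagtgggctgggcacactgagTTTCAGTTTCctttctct
IFIT1, chr10:89392482-89392554, plus strand: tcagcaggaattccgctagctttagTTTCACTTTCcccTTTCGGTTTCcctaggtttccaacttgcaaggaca
IFI6, chr1:27672251-27672373, minus strand: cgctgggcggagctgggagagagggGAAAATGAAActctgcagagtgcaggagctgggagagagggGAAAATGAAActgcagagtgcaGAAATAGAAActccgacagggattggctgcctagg
IFI27, chr14:94110603-94110675, plus strand: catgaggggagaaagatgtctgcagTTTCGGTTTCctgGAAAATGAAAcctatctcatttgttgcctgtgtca
ISG15, chr1:1013359-1013424, plus strand: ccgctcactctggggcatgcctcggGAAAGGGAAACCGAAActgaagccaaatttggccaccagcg
Of the 16 higher interferon genes, 13 had a promoter in the table and 11 of these held the motif (84.6%), as did 11 of 20 interferon genes that were under 2-fold (55%). By comparison, the motif stood in 222 of 9528 promoters of genes with a value (2.33%) and in 1061 of all 35097 promoters (3.02%). It stood in 20 of 180 promoters of all genes higher in clone 2 (11.1%), which include the 11 interferon promoters just counted, and in 4 of 185 of all genes lower in clone 2 (2.16%). MX1 and IRF9 were higher in clone 2 and had no match to these letters in that window. A match describes the sequence and not binding, and the interferon list is one of genes known for this element.

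Among the effectors, BST2, or tetherin, which holds budding virus at the cell surface, had a log2 signal of 9.39 in clone 2, 5.75 in clone 1 and 9.55 in HCC827, a 12.5-fold difference between the clones. IFI44, an interferon-induced protein of the cytoplasm, had 9.24 in clone 2, 6.70 in clone 1 and 10.98 in HCC827. MX1, a dynamin-like antiviral GTPase, had 11.28 in clone 2, 9.16 in clone 1 and 11.83 in HCC827. For all 3 clone 2 lay nearer to HCC827. IFIT1 and IFIT3, which bind viral RNA, were 3.95-fold and 3.92-fold higher in clone 2 on their brightest probes, with a difference of 0.07 on the second probe of IFIT1, below background in both clones, and of 0.98 on that of IFIT3. OAS3, a sensor of double-stranded RNA that makes oligoadenylates, was 3.61-fold higher. OAS2 and IFI27 were below background in clone 1 and had bounds of at least 1.47-fold and 1.81-fold, so that a 2-fold difference is not shown for them. IFI6, a mitochondrial and reticulum protein, was 3.17-fold higher with 11.53 in clone 2, 9.87 in clone 1 and 11.47 in HCC827. The ubiquitin-like ISG15 was 1.15 higher on the log2 scale and within 2-fold of HCC827 in both clones.

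Among the regulators, IRF9, a DNA-binding transcription factor of the interferon response, had 11.20 in clone 2, 9.24 in clone 1 and 10.85 in HCC827, a 3.89-fold difference. IRF7, which amplifies the interferon response, had 9.01 in clone 2, 7.54 in clone 1 and 8.61 in HCC827. Both factors were within 2-fold of HCC827 in clone 2 only. IFITM3, the brightest member under 2-fold, had 11.95 in clone 2, 11.02 in clone 1 and 11.95 in HCC827. SAMD9L, a growth-restraining factor whose gene lies on chromosome 7, ran the other way with 6.07 in clone 2, 7.33 in clone 1 and 8.08 in HCC827. UBE2L6, which charges ISG15, was 4.43-fold higher in clone 2 on its brightest probe. Of 21 detected genes of the major histocompatibility complex and antigen presentation, many of which interferon also raises, 0 were 2-fold apart, against 3.84% of all genes. In a list this short a count of 0 lies near that share and says little. The median difference of the 21 genes was -0.02. B2M, the light chain of class I molecules, had 12.25 in clone 2, 12.10 in clone 1 and 12.29 in HCC827.

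**Figure D3:**
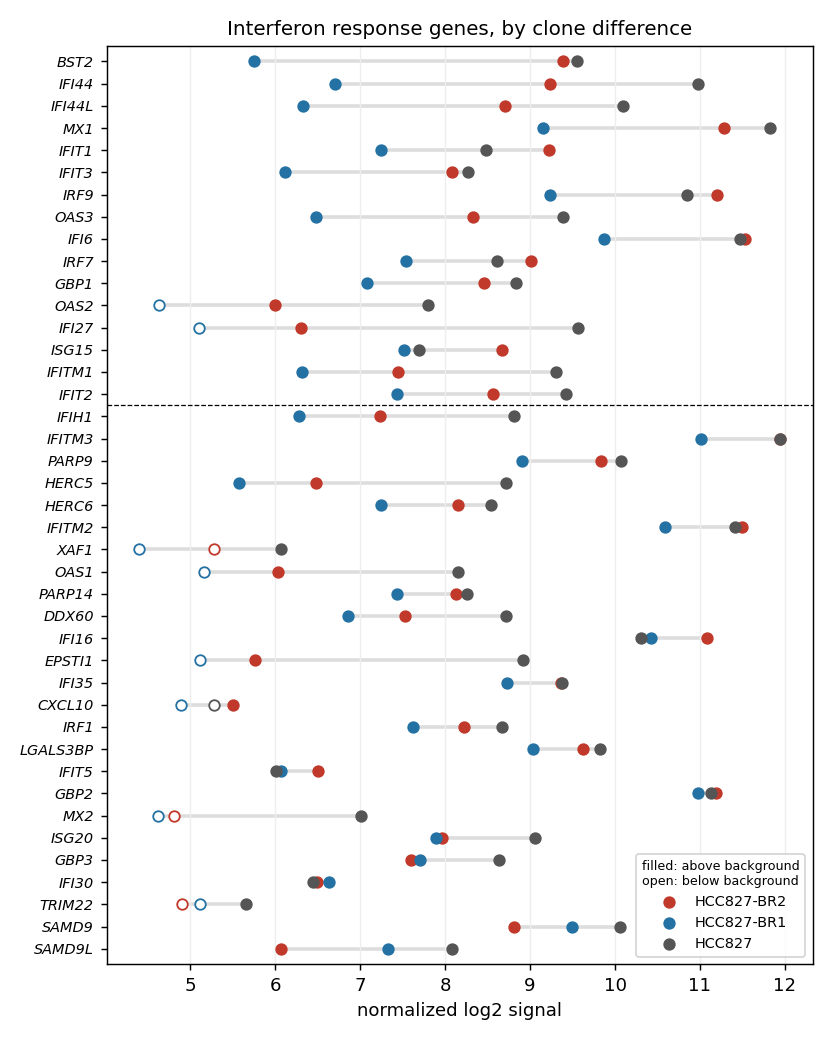
The normalized log2 signal of each of the 41 detected interferon-response genes is drawn for the 3 arrays, in order of the difference between the clones. For 36 genes the clone 2 symbol lies to the right of the clone 1 symbol, from BST2 at the top, and SAMD9L lies farthest the other way.

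Some secreted liver-type and inflammatory proteins were higher in clone 2. Of 22 detected acute-phase and complement genes 4 were at least 2-fold higher (CRP, C5, FGB and FGG) and 0 lower, against 1.85% higher and 1.99% lower over all genes. The median difference was 0.43, which came to 0.09 when signals below background were set to the floor. SERPINA1 and AFP, described above and counted in other lists, were lower in clone 2, with differences of -2.54 and -1.71. FGG, the gamma chain of fibrinogen, had 12.20 in clone 2, 9.55 in clone 1 and 9.12 in HCC827, and a second probe differed by 2.56. FGB, the beta chain, had 13.30 in clone 2, 11.59 in clone 1 and 11.80 in HCC827. Both fibrinogen chains were near HCC827 in clone 1 only. CRP, C-reactive protein, had 13.26 in clone 2 and 12.20 in clone 1 and was below background in HCC827 at 4.79. CFB, complement factor B, was the brightest member under 2-fold and ran the other way, 1.96-fold lower in clone 2.

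Among 40 detected chemokine, interleukin and NF-kB genes 6 were at least 2-fold higher in clone 2 and 0 lower, against 1.85% higher and 1.99% lower over all genes. The median was 0.40, and 33 differences were above 0, against 49.6% of all genes. The 6 higher genes were CXCL5 and CXCL8, which attract neutrophils, CCL2, which attracts monocytes, the cytokine IL6, the NF-kB target TNFAIP2, and IL13RA2. CXCL8 had 10.94 in clone 2, 9.57 in clone 1 and 10.58 in HCC827, and CXCL5 had 10.76 in clone 2, 9.31 in clone 1 and 9.57 in HCC827. CCL2 had 6.74 in clone 2 and was below background in clone 1 at 4.63 and in HCC827 at 5.04. CXCL8 was thus near HCC827 in clone 2, and the other 2 chemokines in clone 1. PTGS2, the inducible cyclooxygenase COX-2, was 3.3-fold higher in clone 2, with 9.64 there, 7.92 in clone 1 and 9.82 in HCC827. VCAM1, a leukocyte adhesion molecule, had 10.22 in clone 2 and 8.68 in clone 1 and was below background in HCC827 at 4.85.

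Within the EGFR family the clones differed in opposite directions for receptors and a ligand. EGFR, the drug's target, had 8.90 in clone 2, 12.63 in clone 1 and 13.35 in HCC827 on its brightest probe, a 13.3-fold difference with clone 1 near the parent. A second probe differed by -2.88, and the dimmest by -0.66 with clone 2 below background. ERBB3, a receptor that signals with its partners, had 6.25 in clone 2, 7.61 in clone 1 and 9.01 in HCC827 on its brightest probe, and its dimmer probes differed by -0.34 and -0.38; the mean of its passing probes differed by -0.69, under 2-fold. ERBB2 had 9.26 in clone 2 and 9.61 in clone 1, under 2-fold apart, against 10.92 in HCC827. NRG1, the ligand neuregulin-1, which binds ERBB3 and ERBB4, ran the other way, with 10.25 in clone 2, 8.85 in clone 1 and 8.64 in HCC827, and a second probe differed by 1.99. LRIG1, which promotes breakdown of these receptors, was 3.32-fold higher in clone 2 and below background in HCC827. Of 12 detected receptors and ligands of the family these 4, 2 higher and 2 lower, were apart (33.3%), against 3.84% of all genes.

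Apart genes were also counted in lists of other kinases, integrins and ERK output, where 3.84% of all genes is the share to compare. In lists this short, counts of 0 or 1 lie near that share and say little about the lists. Of 21 other receptor kinases and ligands, of 13 SRC family members and dasatinib targets, and of 15 integrins, 0 were 2-fold apart. MET had 8.90 in clone 2, 9.30 in clone 1 and 10.06 in HCC827. AXL had 7.28 in clone 2, 6.32 in clone 1 and 5.29, below background, in HCC827, a 1.95-fold difference just under the threshold. Of 12 ephrin receptors and ephrins 1 was apart, the receptor EPHA4, with 7.07 in clone 2, 5.91 in clone 1 and 4.90, below background, in HCC827. SRC had 9.37 in clone 2, 9.29 in clone 1 and 9.44 in HCC827. Of 25 genes that report ERK output, 1 was apart, EGR1, described above. The brightest of them, ERRFI1, a feedback inhibitor of EGFR, had 12.07 in clone 2, 12.64 in clone 1 and 12.81 in HCC827.

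Epithelial genes, low in both clones against HCC827, differed between the clones for a few members. The median of 37 detected genes was -2.51 in clone 2 and -2.51 in clone 1 against HCC827, and -0.06 between the clones. Of the 37, 1 was at least 2-fold higher in clone 2 and 2 lower (8.11%), against 3.84% of all genes. CDH1, the adhesion molecule E-cadherin, had 7.78 in clone 2, 9.24 in clone 1 and 13.11 in HCC827, and EPCAM, an epithelial adhesion molecule, had 8.99 in clone 2, 10.64 in clone 1 and 14.05 in HCC827, with a second, dimmer probe at -0.33 between the clones. Both genes lay farther below HCC827 in clone 2. CLDN1, a tight-junction claudin, was the member higher in clone 2, with 11.62 there, 10.29 in clone 1 and 8.28 in HCC827. Of 9 detected keratins KRT7 was higher in clone 2 and KRT15 and KRT19 lower (33.3%, against 3.84% of all genes). KRT8 had 10.80 in clone 2 and 10.89 in clone 1. KRT15 and KRT19 lie in a stretch of chromosome 17 that was lower in clone 2, and CLDN1 in one of chromosome 3 that was higher. NAPSA, the lung protease napsin A, had 5.77 in clone 2 and 6.81 in clone 1, and stood -5.23 from HCC827 in clone 2 and -4.19 in clone 1. Of 8 detected lung adenocarcinoma epithelial markers KRT7 was higher in clone 2 and 4 (KRT19, EPCAM, CDH1 and NAPSA) were lower. That share of 62.5%, in a short list, was above the share in the interferon list, and the median was -0.73.

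A few matrix and mesenchymal genes were apart. Of 23 laminins, type IV collagens and matricellular genes 4 were higher in clone 2 and 1, TNC, lower, and of 26 mesenchymal genes 3 were higher and 0 lower, against 1.85% higher and 1.99% lower over all genes. LOX is counted in both lists. The medians were 0.29 for the matrix list and 0.13 for the mesenchymal one, with 17 of the 26 mesenchymal differences above 0. COL12A1, a fibril-associated collagen, had 8.56 in clone 2, 6.66 in clone 1 and 6.25 in HCC827, and THBS1, thrombospondin-1, had 11.63 in clone 2, 10.28 in clone 1 and 7.72 in HCC827. Clone 1 was near HCC827 for the collagen, and neither clone was for thrombospondin. Among 25 targets of YAP and TEAD, which act in the response to cell shape and contact, 4 were higher in clone 2 (WWTR1, AJUBA, ANKRD1 and F3) and 0 lower. Over all genes the shares were 1.85% higher and 1.99% lower. WWTR1 lies in a stretch of chromosome 3, from PCOLCE2 to SUCNR1, that was higher in clone 2 with a median of 0.53. WWTR1, which encodes the YAP relative TAZ, had 9.63 in clone 2, 7.89 in clone 1 and 8.18 in HCC827, and F3, tissue factor, had 10.63 in clone 2, 9.12 in clone 1 and 10.51 in HCC827. CCN1, the brightest target under 2-fold, had 12.91 in clone 2 and 12.62 in clone 1, against 11.18 in HCC827.

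Some enzymes of detoxification were lower in clone 2. Of 21 detected glutathione transferases 3 were lower and 0 higher, against 1.99% lower over all genes, and 13 of the 21 lay below 0. The 3 were all of the alpha class (GSTA1, GSTA2 and GSTA5), whose close sequences let a probe detect its relatives. GSTA1 had 6.36 in clone 2, 9.58 in clone 1 and 4.98, below background, in HCC827, and its second probe was above background in clone 1 alone. Of 20 aldehyde dehydrogenases and aldo-keto reductases 4 were lower and 1, ALDH1A3, higher, and 15 of the 20 differences lay below 0. Of 23 cytochromes P450, glucuronosyltransferases and sulfotransferases 2, CYP4F3 and UGT2B17, were lower and 1, CYP2J2, higher, with 13 below 0. CYP4F3 was below background in both clones, so that its difference is not shown. The list median of -0.19 came to 0.01 with signals below background set to the floor. AKR1B10, a reductase of retinal and other aldehydes, had 7.91 in clone 2, 9.63 in clone 1 and 10.17 in HCC827. ALDH2, of mitochondria, had 9.23 in clone 2, 10.85 in clone 1 and 9.29 in HCC827. AKR1B10 lies in a stretch of chromosome 7, and ALDH2 in one of chromosome 12, that was lower in clone 2 on the brightest probes. Second probes of the chromosome 12 stretch had a median above 0. AKR1C2, a steroid-converting reductase with near-identical relatives, had 13.07 in clone 2, 14.32 in clone 1 and 5.70 in HCC827. The clone that stayed near HCC827 thus differed from enzyme to enzyme. All 6 detected metallothioneins, small metal-binding proteins, had negative differences, with a list median of -0.41, and all 6 lie in the stretch of chromosome 16 described further on, whose median was -0.64. MT1X was at least 2-fold apart and had 9.05 in clone 2, 10.42 in clone 1 and 8.50 in HCC827. Of 27 genes of sterol and fatty acid synthesis 20 were below 0, against 49.6% of all genes above 0, and 1 of them by 2-fold, with a median of -0.29.

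Growth genes differed little in size but mostly in one direction. Of 36 detected mitosis genes 0 were 2-fold apart, yet 35 differences were above 0, against 49.6% of all genes, with a median difference of 0.40 and a list median of 0.44 in clone 2 and 0.004 in clone 1 against HCC827. CDC20, which activates the anaphase-promoting complex, had 12.81 in clone 2, 12.35 in clone 1 and 12.47 in HCC827. Of 35 replication and S-phase genes 0 were apart and 27 were higher in clone 2, with a median of 0.36. The 12 housekeeping genes had a median difference of 0.21 with 0 apart, 38 cytosolic ribosomal proteins 0.07, and 37 subunits of oxidative phosphorylation -0.08.

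**Figure D4:**
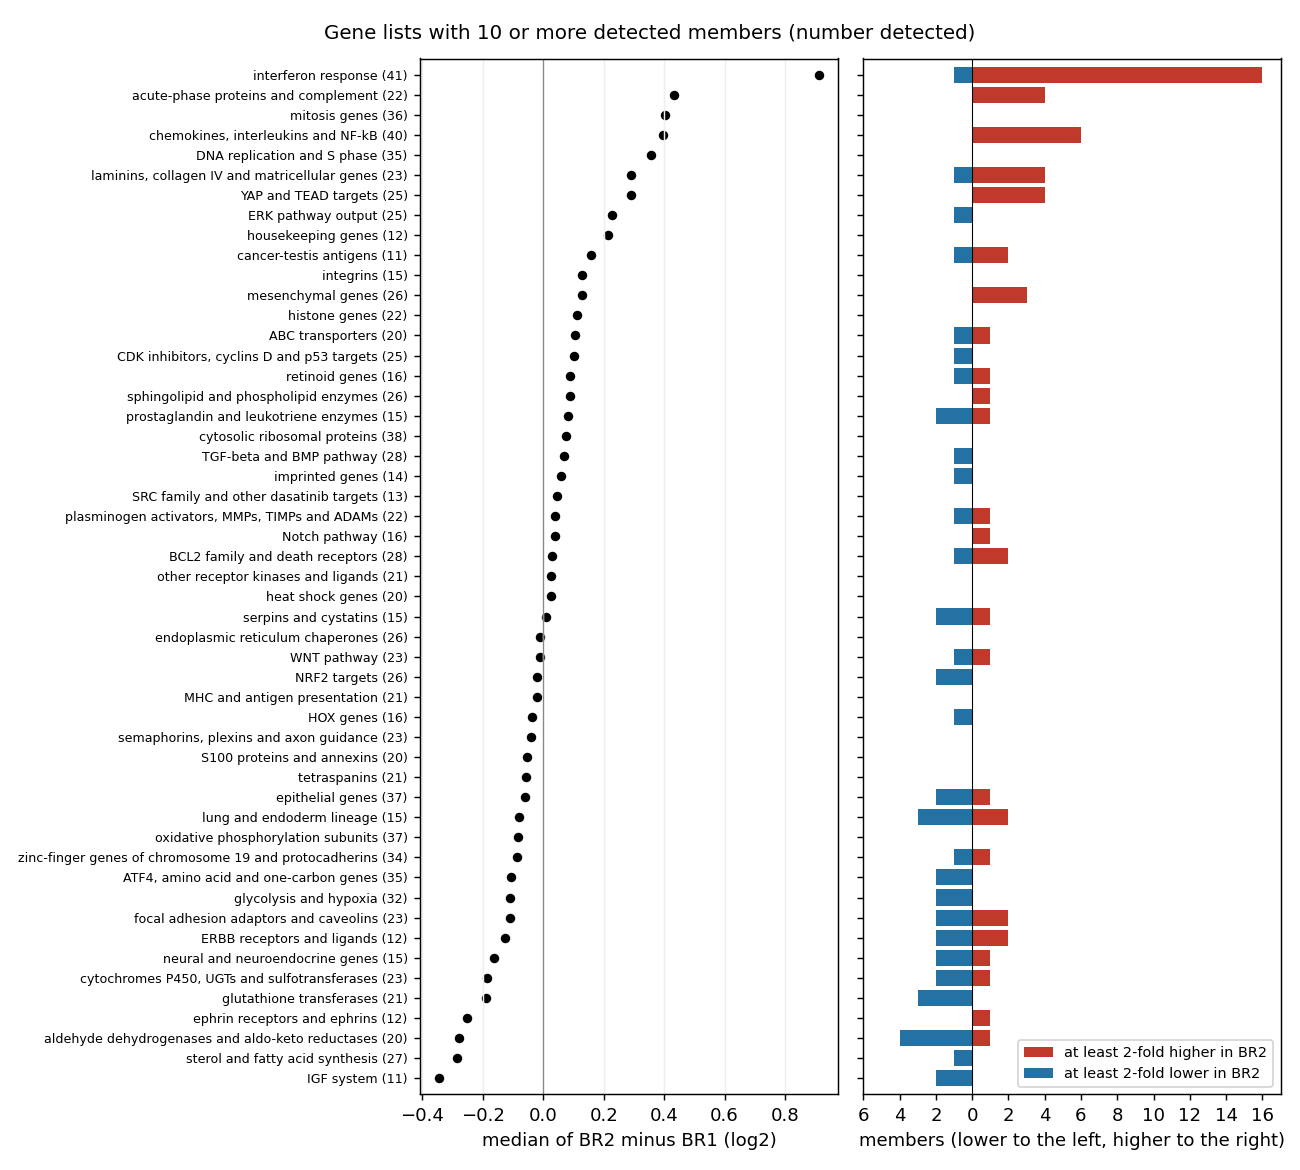
For each gene list with 10 or more detected members (number in brackets) the left panel gives the median log2 difference, clone 2 minus clone 1, and the right panel the members at least 2-fold higher in clone 2, to the right of 0, and at least 2-fold lower, to the left. The interferon list has the most apart members, 16 higher and 1 lower, and a median of 0.91, while mitosis genes have 0 apart members and a median of 0.40.

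Genes that were apart also lay together along the chromosomes. Placed in RefSeq order, 11669 genes gave 11347 windows of 15 neighbours, whose median difference was 0.09 in size for the middle window and 0.80 at the 99th percentile. Joining overlapping windows with a median of at least 0.5 either way gave 21 stretches with 925 genes. They held 7.93% of the placed genes and 148 of the 448 apart genes (33%), and outside them 300 of 10744 genes (2.79%) were apart. The stretches were found from these same differences, so that their counts are a description. By chromosome, the percentages apart were 11.7 on X, 9.11 on 16, 7.82 on 7 and 7.77 on 14.

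A stretch of chromosome 16 from KAT8 to DRC4 was the longest. It held 249 of the 516 detected genes of that chromosome, with a median of -0.64, and 228 of them (91.6%) were lower in clone 2, 44 by at least 2-fold, against 1 higher. The stretch median against HCC827 was -0.46 in clone 2 and 0.18 in clone 1, and 54 second probes within it had a median of -0.62 between the clones. CDH1 and the 6 metallothioneins lie in this stretch. TUBB3, a beta-tubulin typical of neurons, had 11.09 in clone 2 and 12.48 in clone 1 and was within 2-fold of HCC827 in clone 2 only, and CDK10, a cyclin-dependent kinase, had 9.60 in clone 2, 10.94 in clone 1 and 10.12 in HCC827. ANKRD11, a chromatin-associated cofactor, had 8.74 in clone 2, 9.81 in clone 1 and 9.73 in HCC827. Single genes in the stretch thus differed in which clone they left near HCC827.

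On chromosome 14 a stretch from TTC5 to SPTSSA held 81 genes with a median of 0.83, of which 72 (88.9%) were higher in clone 2, 22 by at least 2-fold and 0 lower by that much. Against HCC827 its median was 0.28 in clone 2 and -0.54 in clone 1. IRF9 lies here, as do PSME1 and PSME2, the subunits of the interferon-inducible proteasome activator. PSME2 had 10.22 in clone 2, 8.70 in clone 1 and 10.41 in HCC827. Genes of the stretch with no place in the interferon list differed in the same direction: OXA1L, which inserts proteins into the mitochondrial inner membrane, had 10.58 in clone 2, 9.19 in clone 1 and 10.71 in HCC827, and the importin IPO4 had 10.10 in clone 2, 8.73 in clone 1 and 8.69 in HCC827. AJUBA, counted above among YAP and TEAD targets, is also in this stretch.

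On the X chromosome a stretch from BRWD3 to MMGT1 held 138 genes with a median of 0.66, of which 112 (81.2%) were higher in clone 2 and 25 by at least 2-fold, against 2 lower by that much. Its median against HCC827 was -0.22 in clone 2 and -0.78 in clone 1. IL13RA2 lies within it, far above its neighbours. BEX2, a small regulator of signalling and survival, had 8.97 in clone 2, 7.14 in clone 1 and 10.10 in HCC827, and TCEAL3, of the neighbouring transcription elongation factor-like family, had 10.85 in clone 2, 9.79 in clone 1 and 11.27 in HCC827. Neighbours of this family share sequence, which probes may not fully separate.

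Around EGFR on chromosome 7, a stretch of 22 genes from UPP1 to ZNF138 had a median of -0.36, with 9 genes at least 2-fold lower in clone 2 and 0 higher. Its median against HCC827 was -0.995 in clone 2 and -0.32 in clone 1. The 9 were EGFR, LANCL2, VOPP1, MRPS17, NIPSNAP2, PSPH, CCT6A, SUMF2 and CHCHD2. MRPS17, a mitochondrial ribosomal protein, had 10.46 in clone 2, 12.25 in clone 1 and 12.51 in HCC827, PSPH, the last enzyme of serine synthesis, had 8.33 in clone 2, 10.04 in clone 1 and 10.46 in HCC827, and SUMF2, a reticulum protein related to the sulfatase-modifying factor, had 11.53 in clone 2, 13.68 in clone 1 and 13.47 in HCC827. In clone 1 these genes stayed near HCC827. UPP1, uridine phosphorylase, at the start of the stretch, was under 2-fold apart and higher in clone 2, with 9.19 there and 8.44 in clone 1. The median of neighbouring genes was below 0 farther along chromosome 7 as well. A further 6 stretches there, of 23 to 53 genes and 195 genes in all, were lower in clone 2 with medians from -0.55 to -0.40, and 1 stretch of 22 genes from PMS2 to ANKMY2, before EGFR, was higher with a median of 0.44. DNA copy number was not analysed here, and its part in any stretch was not tested.

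**Figure D5:**
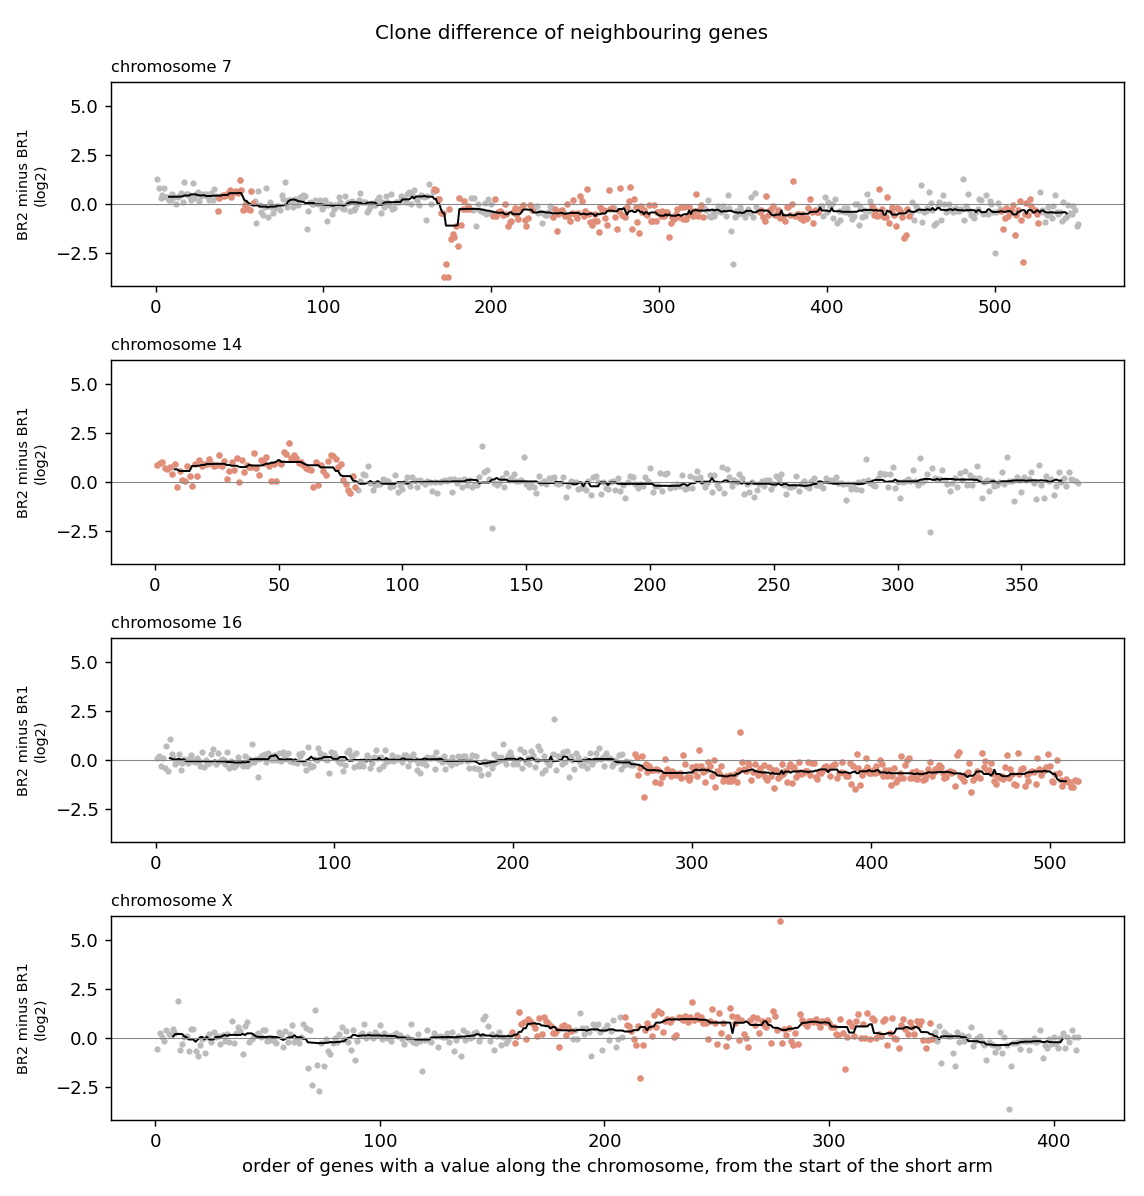
The log2 difference between the clones is drawn for genes of chromosomes 7, 14, 16 and X in their RefSeq order, with the median of each 15-gene window as a line and the genes of the stretches in red. The window line lies below 0 along a long run of chromosome 16, above 0 on parts of 14 and X, and below 0 on 7 from EGFR on to the end, lowest at EGFR.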

How the data were processed

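Total RNA of HCC827, HCC827-BR1 and HCC827-BR2 was measured on Illumina HumanHT-12 arrays, 1 array each, per the labels; groups come from the sample titles. The main deposited table, not normalized, gives 48803 probes a linear intensity each, and its values show that no background had been subtracted (lowest signals 37.9, 35.9 and 38.4 in clone 2, clone 1 and HCC827). The authors' second deposited table, also a linear intensity, served as an alternative; for both tables the summarising software is unstated in the labels and files used. The members of the comparison and the gene lists were chosen with earlier results of these data known.

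Without control probes or detection p-values, the values were background-corrected with normexp (limma 3.58.1 in R 4.3.3, offset 16), put on the log2 scale and quantile-normalized over the 3 arrays. A probe passed background where its log2 signal exceeded the mode of its array, with the spread below the mode as SD, at a one-sided p of 0.01 (signals of 71.9, 67.3 and 70.6). Probes were named from the platform annotation, updated through RefSeq: 28098 had 1 gene, 13 several and 20692 were not listed. Of the named probes 15456 passed on at least 1 array, and a gene took its brightest passing probe. "Near" means within 2-fold of HCC827. Genes were named by rule: selected kinases, the 20 highest and 20 lowest, the top 10 of each nearness class, up to 4 apart members of each of 59 lists in each direction and the brightest member under 2-fold, 12 with agreeing second probes, and members of the 5 most shifted windows. Genes outside this rule were named as parts of counts, after their values had been seen. They were IL6, TNFAIP2, IRF7, OAS1, SAMD9, OAS2, IFI27, ISG15, the leukocyte and fibroblast markers named as passing, and those named as absent. Only the background correction and normalization were tested on simulated data, with known changes in bright probes. The later steps and dim probes were not tested in this way. Alternatives changed the background correction, offset, scaling, table, probe filter, detection level, probe rule and fold limits; stretches, floored values and the interferon list outside stretches were added after seeing the data.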

Additional observations from a re-analysis of the deposited data

Results flagged for a closer look

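A set of 3 genes had signals at least 2-fold from HCC827 in opposite directions in the clones, and 2 of them kept this with signals below background set to the floor. PNCK, a calmodulin-dependent kinase, differed from HCC827 by -1.62 on the log2 scale in HCC827-BR2 and by 2.00 in HCC827-BR1, with log2 signals of 5.85 in HCC827-BR2, 9.48 in HCC827-BR1 and 7.48 in HCC827. CNTNAP2, a neurexin-like membrane protein, differed by -1.09 in HCC827-BR2 and by 1.39 in HCC827-BR1. LOX, the collagen cross-linking lysyl oxidase, differed by 1.32 in HCC827-BR2 and by -1.43 in HCC827-BR1, where its probe was below background, so that a 2-fold difference there is not shown. With 1 array a line, none of these differences was tested.

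Probes without a gene name in the annotation used also separated the clones. Of 3189 such probes above background on at least 1 array, 90 were at least 2-fold apart (2.82%), 29 higher and 61 lower in HCC827-BR2. The probe farthest apart had signals of 3130 in HCC827-BR2, 21371 in HCC827-BR1 and 19634 in HCC827.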

How the results depend on the processing

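No paired analysis was possible because each line has 1 array. Of 181 named apart genes, 107 of 1397 values under the alternatives fell under 2-fold, in 44 genes, and 0 changed direction. Of these 107 values 29 came with no background correction, 33 with an offset of 50, 29 with the authors' table, 15 with the mean of probes and 1 with median scaling. The probe filter and detection settings gave 0. They change which probes enter and not a probe's signal, so their part of the 1397 says little. The authors' table and no background correction gave the same counts, so they are not separate checks. Members named above that fell under 2-fold in at least 1 setting include IFIT3, SAMD9L, ERBB3, EPCAM, NAPSA, KRT15, AKR1C2, AJUBA, ANKRD1 and PSME1. Genes higher and lower in HCC827-BR2 numbered 812 and 925 at a 1.5-fold limit and 57 and 52 at 3-fold. With an offset of 50 they numbered 136 and 141, all among the original genes. With no background correction, and likewise with the authors' table, they numbered 144 and 156, again all among the original genes. The share apart was then 2.57%, and 2.37% with the offset of 50, against 3.84%. Among genes above background on all 3 arrays 140 were higher and 175 lower. Genes near HCC827 in HCC827-BR1 only numbered 87 with an offset of 50, and those near in HCC827-BR2 only 76 with no background correction, 68 with an offset of 50 and 76 with the authors' table. A larger offset and no correction both shrink differences between dim probes. The interferon median ran from 0.72 to 0.93, and the stretch medians from -0.68 to -0.54 on chromosome 16, 0.71 to 0.87 on 14, 0.51 to 0.78 on X and -0.45 to -0.23 on 7. With signals below background set to the floor, 46 of the 449 genes were no longer apart.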
